A study of Mus musculus with 8 samples.

Results

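Of the genes measured in mouse calf muscle, 10 that mark the endothelium, the cell layer lining every blood vessel, are described here: Pecam1, Cdh5, Cldn5, Emcn, Kdr, Flt1, Tie1, Tek, Egfl7 and Vwf. They were taken by name as vessel receptor and pan-endothelial genes, without a cut on measured values, and all 10 were found among the 23008 mouse genes of the deposited table and had a mean level high enough to be tested, with 15960 genes in all. The samples were 8 gastrocnemius libraries (the main muscle of the calf) from wild-type C57BL/6J mice. In 4 of them the mice had received AAV9, an adeno-associated virus that reaches striated muscle from the blood, carrying the GNDM construct, a gene-activating epigenome editor, with guide m31, which targets Lama1. In the other 4 they had received AAV9 GNDM with a control guide that has no target, so both groups carried the virus and the editor and differed in the guide. Injection was into the tail vein, muscle was taken 11 weeks later, and the age at injection is given as 7 weeks in one label and as 7 to 12 weeks in another. The labels do not state that each library came from a separate animal, so each p-value reflects the variation among these libraries only, part of which could be technical.

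Depth was 34142447 to 37792459 reads in genes for the m31 libraries and 25157486 to 39210248 for the controls. A level is given in normalised reads, the reads of a gene divided by the size factor of its library. Lama1, the targeted gene, stood at 209, 295, 273 and 86.5 normalised reads across m31 replicates 1 to 4, against 4.18, 0, 2.25 and 0 in control replicates 1 to 4, which fits the labels. It was the 1 gene of 15960 past an adjusted p of 0.05 (limma adjusted p = 0.00372), or 0.00627% of the genes tested. As a sum, fast fibre genes were present in bulk: the 9 listed summed to 4032330 to 4786280 normalised reads in m31 libraries and 3909520 to 5299230 in controls. Of these 9, Tnnc2 alone was low, at 21.0 to 42.2 normalised reads over the 8 libraries. m31 replicate 4 stood apart in stromal, macrophage and slow fibre genes, and control replicate 3 in macrophage genes; the values named below that moved most without either library are given both ways.

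Endothelial cells hold together at adherens junctions built on VE-cadherin (Cdh5) and at tight junctions built on claudin-5 (Cldn5), and they line each muscle fibre with capillaries that deliver oxygen and fatty acids. A pair of receptor systems governs them. VEGF signals through VEGFR2 (Kdr), while VEGFR1 (Flt1) binds the same ligand tightly, signals weakly and also exists as a secreted decoy. Angiopoietins signal through Tie2 (Tek), with Tie1 as its partner without a classical ligand of its own. In RNA of a whole muscle, fewer endothelial cells and less RNA per endothelial cell cannot be told apart.

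None of the 10 endothelial genes passed the test between guides. The groups overlapped for every one of them, whereas they did not overlap for 3.85% of all genes tested, 1.84% with m31 higher and 2.02% with m31 lower. By limma 0 of 10 passed, and 0 had an unadjusted p under 0.05 (6.79% of all genes tested did); edgeR and DESeq2 on the recovered reads also placed 0 of 10 past the threshold, where edgeR placed 0.00618% and DESeq2 0.164% of the genes they tested. Of all genes tested by limma, 3.76% were higher and 3.03% lower with m31 at that unadjusted p. The log2 differences, m31 minus control, ran from -0.16 (Cldn5) to 0.25 (Emcn), with 8 positive and 2 negative and a median of 0.06, beside a median of 0.01 over all genes tested (51.3% positive). Each value rested on 184 to 3697 reads. The 95% intervals of limma, which cover the spread between libraries and are not adjusted for the number of genes, lay within a 2-fold change in either direction for all 10 and within 1.5-fold for 9, Cldn5 being the exception. Intervals of this width still leave room for smaller differences in either direction.

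**Figure D1:**
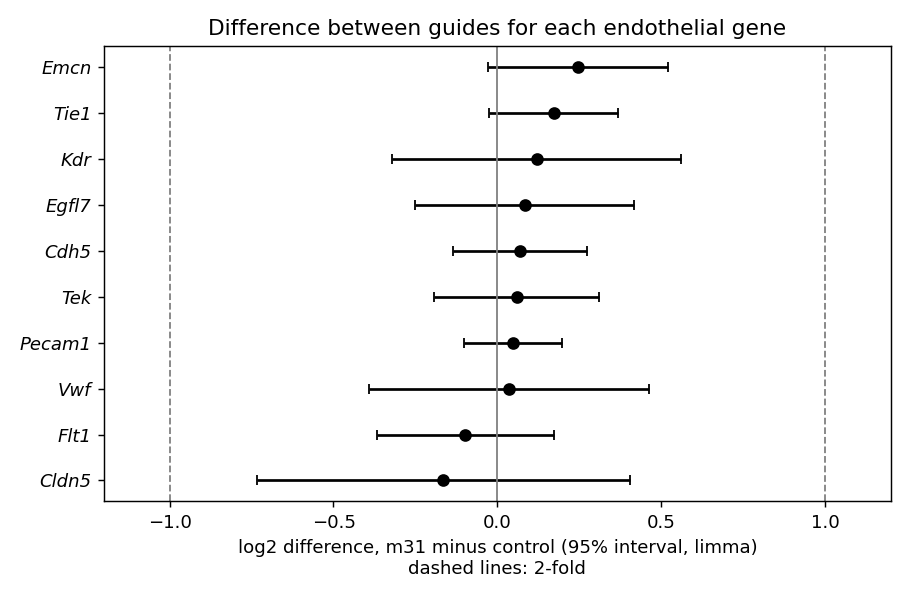
Log2 difference between guides (m31 minus control, x axis) with its 95% limma interval for each of the 10 endothelial genes; dashed lines mark a 2-fold change. Every interval includes 0 and lies inside the dashed lines, with Cldn5 the widest and Pecam1 the narrowest.

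The adhesion and junction genes come first. Pecam1 encodes CD31, an adhesion molecule at the contacts between endothelial cells that platelets and leukocytes carry too. It stood at 2239, 2238, 2270.2 and 2169 normalised reads across m31 replicates 1 to 4, against 2205, 2185, 2208 and 2039 in control replicates 1 to 4. The highest of the 8 libraries was 1.11 times the lowest. The means were 2229 ± 42.7 with m31 and 2159 ± 81.0 in the controls (SD, n = 4 each), for a log2 difference of 0.05 ± 0.07 (SE, limma adjusted p = 0.914). Its spread within groups, an SD of 0.0436 on the log2 scale, was among the smallest measured: 0.276% of the genes tested had a smaller one, and the median over all genes tested was 0.214.

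Cdh5, the VE-cadherin gene, stood at 3139, 2969, 3267 and 2844 normalised reads across m31 replicates 1 to 4, against 3094, 3055, 3075 and 2463 in the controls. Control replicate 4 was the lowest library and the other 7 lay close together, so the groups overlapped. The log2 difference was 0.07 ± 0.09 (SE, adjusted p = 0.910, limma), and -0.01 without control replicate 4. Control replicate 4 was the lowest library for Pecam1 too, and Pecam1 and Cdh5 kept the steadiest proportion of the 45 pairs among the 10 genes. The ratio of Pecam1 to Cdh5 was 0.713, 0.754, 0.695 and 0.763 with m31 and 0.712, 0.715, 0.718 and 0.828 with the control guide; these are ratios of normalised reads, not corrected for length.

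Cldn5, which encodes the tight junction protein claudin-5, was the least steady of the 10. It stood at 484, 203, 199 and 204 normalised reads across m31 replicates 1 to 4, against 336, 251, 279 and 269 in the controls. m31 replicate 1 was more than any other library, and the other 3 m31 libraries were below all 4 controls. Its log2 difference was -0.16 ± 0.26 (SE, limma adjusted p = 0.927); without m31 replicate 1 it was -0.48 (adjusted p = 0.491) and without m31 replicate 2, 3 or 4 it was -0.06, -0.05 and -0.06. The interval ran from -0.73 to 0.41. 1 library thus decided the size of this difference, which did not pass with or without it.

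Emcn encodes endomucin, a sialomucin of capillary and venous endothelium. Its values were 311, 380.1, 347 and 305 normalised reads with m31 against 282, 270.0, 339 and 245 with the control guide. Of the 4 controls only replicate 3 reached the m31 range. With a log2 difference of 0.25 ± 0.12 (SE), Emcn had the smallest p of the 10 genes (unadjusted p = 0.0750, adjusted p = 0.765, limma). Without control replicate 3 the value was 0.33 (adjusted p = 0.333), and without both m31 replicate 4 and control replicate 3 it was 0.38 (adjusted p = 0.306).

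**Figure D2:**
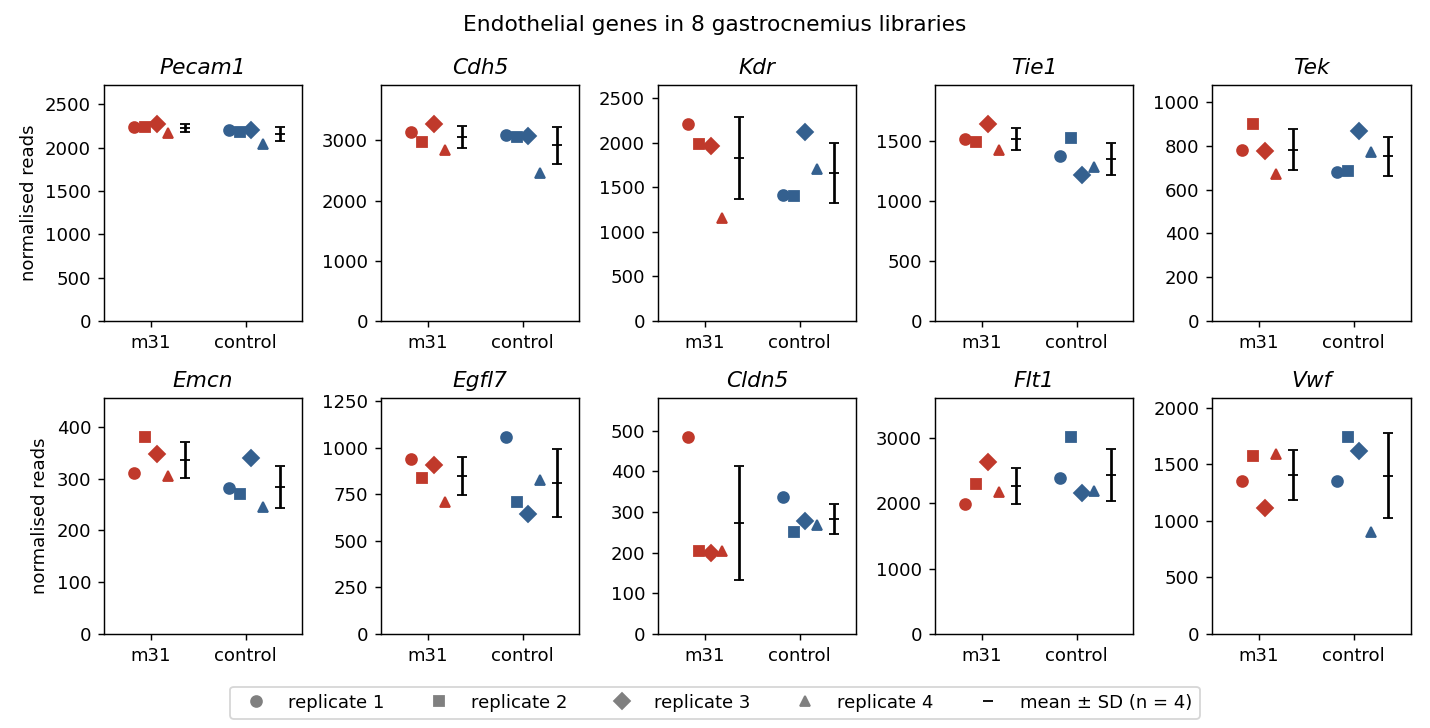
Normalised reads (y axis, from 0) of the 10 endothelial genes in the 4 m31 and 4 control libraries; symbols give the replicate and bars the mean ± SD of 4. Pecam1 lies between 2039 and 2270.2 in all 8 libraries, while Cldn5 reaches 484 in m31 replicate 1 and 199 to 204 in the other m31 libraries.

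The VEGF receptors follow. Kdr, the main signalling receptor for VEGF, stood at 2204, 1988, 1965 and 1154 normalised reads across m31 replicates 1 to 4, against 1415, 1396, 2119.6 and 1702 in the controls. m31 replicate 4 was the lowest of the 8 libraries. m31 replicate 1 exceeded every control, and m31 replicates 2 and 3 exceeded all controls but replicate 3. The log2 difference was 0.12 ± 0.20 (SE, adjusted p = 0.934, limma). It was 0.33 without m31 replicate 4 (adjusted p = 0.850), 0.25 without control replicate 3 (adjusted p = 0.655) and 0.45 without both (adjusted p = 0.186), and 0.02 without m31 replicate 1. Over all alternatives tried the value stayed positive, from 0.02 to 0.45, and did not pass.

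Flt1, the gene of VEGFR1 and its soluble form, took values of 1984, 2295, 2634 and 2171 normalised reads with m31 and 2389.6, 3014, 2166 and 2187 with the control guide. Control replicate 2 was the highest library and m31 replicate 1 the lowest, with the groups overlapping between them. Between guides the log2 difference was -0.10 ± 0.12 (SE, limma adjusted p = 0.901), and 0.01 without control replicate 2. The table gives 1 value per gene, so the membrane and soluble forms of VEGFR1 were not separated.

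The balance of the decoy to the signalling receptor varied between libraries. The ratio of Flt1 to Kdr in normalised reads was 0.900, 1.15, 1.34 and 1.88 in m31 replicates 1 to 4, against 1.69, 2.16, 1.02 and 1.28 in the controls. The range was similar in both groups, and the difference in mean log2 ratio was -0.22 (exact two-sided permutation p = 0.543, adjusted p = 0.571 over 3 ratios). Without both m31 replicate 4 and control replicate 3 it was -0.58, and without control replicate 2 it was -0.04. The smallest p that the 70 arrangements of 8 libraries allow is 0.0286. Both genes lie on chromosome 5 and both are on the minus strand in the GENCODE annotation of GRCm38, Kdr from 75932827 to 75978458 and Flt1 from 147561604 to 147726011. Their promoter windows are shown because the ratio of this receptor pair is one of the 3 compared here; each runs 250 bases before to 50 after the start site (RefSeq, GRCm38.p6, minus strand). Capitals mark AGGAAG or CCGGAA, cores bound by ETS factors, and TATAAA, on either strand:
Kdr, chr5:75978406-75978705: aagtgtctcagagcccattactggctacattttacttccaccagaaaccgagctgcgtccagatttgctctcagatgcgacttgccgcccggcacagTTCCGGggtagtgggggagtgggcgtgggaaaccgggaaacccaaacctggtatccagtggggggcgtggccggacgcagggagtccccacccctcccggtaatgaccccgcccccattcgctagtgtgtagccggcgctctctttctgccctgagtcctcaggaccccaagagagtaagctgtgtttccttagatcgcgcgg
Flt1, chr5:147725962-147726261: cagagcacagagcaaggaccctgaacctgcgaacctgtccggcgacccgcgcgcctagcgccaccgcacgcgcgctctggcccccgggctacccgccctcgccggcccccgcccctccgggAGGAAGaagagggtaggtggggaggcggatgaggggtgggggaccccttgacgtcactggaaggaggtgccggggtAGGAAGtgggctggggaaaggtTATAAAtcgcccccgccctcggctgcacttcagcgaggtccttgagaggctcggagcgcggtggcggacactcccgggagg
In the Kdr window 1 match was found, to CCGGAA on the opposite strand, a motif that 14.9% of all 32817 promoter windows of this length hold. The Flt1 window had 2 matches to AGGAAG, held by 35.4% of all windows, and 1 to TATAAA, held by 13.6%. The G and C content was 60.7% in the Kdr window and 70.7% in the Flt1 window, against a median of 52.7% over all windows. A match in these letters is a description and not a binding site.

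Tie1, the orphan partner receptor of the angiopoietin system, stood at 1516, 1489, 1636 and 1421 normalised reads across m31 replicates 1 to 4, against 1373, 1525, 1218 and 1277 in the controls. Of the controls only replicate 2 lay within the m31 range. The means were 1515 ± 89.5 with m31 and 1348 ± 134 in the controls (SD, n = 4 each), for a log2 difference of 0.17 ± 0.09 (SE, limma adjusted p = 0.772), or 0.23 without control replicate 2 (adjusted p = 0.664).

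Tek encodes Tie2, the receptor that angiopoietins bind. It had 782, 898, 777 and 673 normalised reads with m31 against 679.6, 683, 869 and 773 with the control guide. The groups covered almost the same range, and the log2 difference was 0.06 ± 0.11 (SE, adjusted p = 0.943, limma), or -0.01 without m31 replicate 2. The ratio of Kdr to Tek lay between 1.71 and 2.82 over the 8 libraries, a 1.65-fold range, while Kdr to Flt1 covered a 2.40-fold range. The choice of these pairs followed from looking at their values. The ratio of Tek to Tie1 was 0.516, 0.603, 0.475 and 0.474 with m31 and 0.495, 0.448, 0.713 and 0.605 with the control guide. Its mean log2 value differed by -0.11 between guides (exact two-sided permutation p = 0.571, adjusted p = 0.571 over 3 ratios), and by 0.01 without control replicate 3.

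Egfl7 and Vwf encode proteins that endothelial cells secrete. Egfl7 places an EGF-like protein in the matrix around vessels, and its transcript hosts the endothelial microRNA miR-126. It stood at 940.1, 836, 905 and 707 normalised reads with m31, against 1056, 711, 642 and 827 with the control guide. The control libraries held both the highest and the lowest value. For Egfl7 the log2 difference was 0.08 ± 0.15 (SE, limma adjusted p = 0.941), or 0.22 without control replicate 1 and -0.02 without control replicate 3. In the GENCODE annotation Egfl7 shares part of its span with Gm20532 on the same strand and 64 bases with Agpat2 on the other, and Cdh5 overlaps the antisense gene Gm29682; the strand setting of the counting is not given in the sources used here, so reads there cannot be assigned with certainty.

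Promoter windows of RefSeq were matched for 7 of the 10 genes; Pecam1, Cdh5 and Vwf had none in the table used. Egfl7 and Emcn were the 2 of these 7 genes with AACAGGAA, a letter pattern of combined FOX and ETS sites, on either strand, which 2.97% of the 26994 genes with such a window hold. Both windows are shown for that reason, with AACAGGAA and AGGAAG in capitals (the patterns overlap where both fit; GRCm38.p6, plus strand; Egfl7 has 3 start sites and the first is given):
Egfl7, chr2:26580833-26581132: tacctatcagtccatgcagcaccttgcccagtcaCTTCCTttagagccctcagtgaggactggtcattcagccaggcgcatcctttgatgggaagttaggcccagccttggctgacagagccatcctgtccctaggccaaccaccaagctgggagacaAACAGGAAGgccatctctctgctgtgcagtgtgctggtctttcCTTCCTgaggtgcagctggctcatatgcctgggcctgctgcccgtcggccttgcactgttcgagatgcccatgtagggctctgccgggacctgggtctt
Emcn, chr3:137340828-137341127: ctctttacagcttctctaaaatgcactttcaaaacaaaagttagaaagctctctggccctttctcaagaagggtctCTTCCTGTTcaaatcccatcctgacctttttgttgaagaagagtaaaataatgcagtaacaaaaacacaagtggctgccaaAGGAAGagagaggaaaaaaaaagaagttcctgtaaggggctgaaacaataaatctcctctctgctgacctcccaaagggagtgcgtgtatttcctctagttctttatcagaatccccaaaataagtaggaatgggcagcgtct
In the Egfl7 window the pattern reads forward 92 bases before the start site, and in the Emcn window it lies on the opposite strand 173 bases before it. The other Egfl7 windows, which start at 26583615 and 26586386, did not hold AACAGGAA. Counted by window, 2.65% of all windows held it. AGGAAG occurred in a window of 4 of the 7 genes, against 38.4% of all genes with a window. With so few genes these counts only describe the windows.

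Vwf encodes von Willebrand factor, the clotting protein of endothelial storage granules and of platelets. Its values were 1348, 1569.7, 1115 and 1587 normalised reads across m31 replicates 1 to 4, against 1349, 1738, 1613 and 897 in the controls. Control replicate 4 was lowest and control replicate 2 highest, so the control range enclosed the m31 range. The log2 difference was 0.04 ± 0.19 (SE, limma adjusted p = 0.978), and leaving out control replicate 4 turned its sign (-0.16), as did leaving out replicate 2 (-0.02) or replicate 4 (-0.03) of m31. Of 6 listed platelet genes, 3 were tested and 0 passed; the list summed to 243 to 350.2 normalised reads in m31 libraries and 251 to 302 in controls. Ppbp, a platelet chemokine gene, reached at most 8.01 in any library. The 3 tested genes stood higher over the 8 libraries: Pf4 at 102 to 214 normalised reads, Gp1ba at 48.3 to 116 and Itga2b at 32.8 to 64.1. The part of platelets in the Vwf level was not tested.

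Levels were set side by side between genes after division by exon length. In normalised reads per kb of exon, over the merged exons of the GENCODE annotation, Cdh5 was highest with 727 ± 44.2 in m31 and 695 ± 72.9 in control libraries (SD, n = 4 each). Pecam1 followed at 358 ± 6.86 and 347 ± 13.0, then Tie1 at 308 ± 18.2 and 274 ± 27.3 and Egfl7 at 236 ± 28.8 and 226 ± 50.8, each with m31 before control. Cldn5, Kdr, Flt1 and Tek had group means between 159 and 202 on this scale in both groups. Their single libraries ran from 128 (Kdr, m31 replicate 4) to 342 (Cldn5, m31 replicate 1). Each of them overlapped its neighbour in the order over the 8 libraries, and the order within a neighbouring pair held in 4 or 5 of 8 libraries. Vwf at 87.5 ± 13.8 and 87.1 ± 23.2 and Emcn at 62.1 ± 6.41 and 52.5 ± 7.38 were lowest. The steps from Cdh5 to Pecam1 and from Tek to Vwf had no overlap over the 8 libraries. Pecam1 exceeded Tie1, and Vwf exceeded Emcn, in every library, although their ranges over libraries overlapped. The authors' annotation is not given in the sources used here, so the lengths are those of GENCODE M21 and not necessarily those behind the counts. Merged exons take in every annotated exon of a gene and can be longer than the transcript expressed, which lowers the value. How far this shaped the order was not tested.

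**Figure D3:**
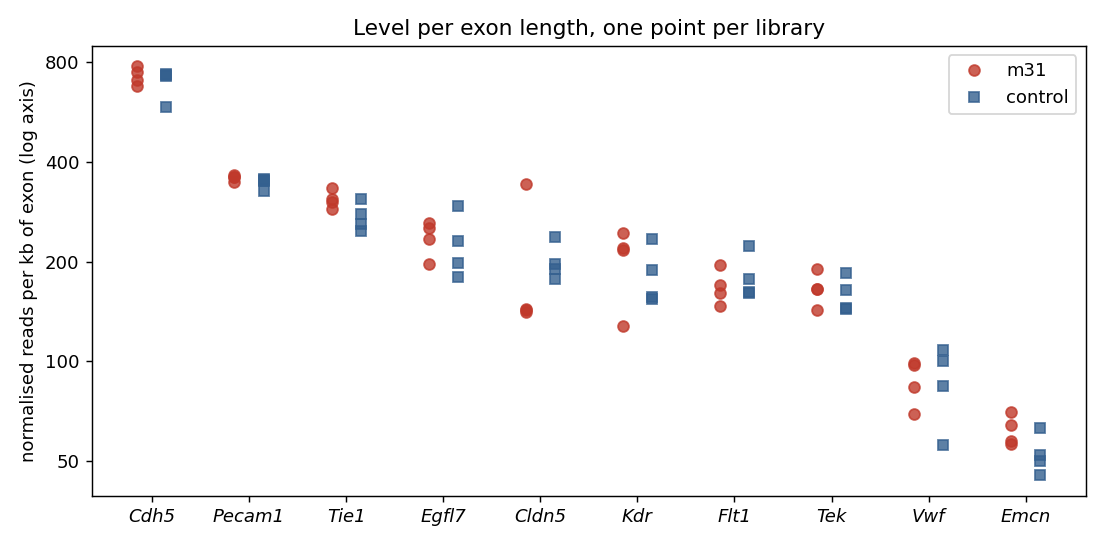
Level of each endothelial gene in normalised reads per kb of exon (y axis, log scale), 1 point per library, m31 left and control right, ordered by the mean. Cdh5 lies above all others, Vwf and Emcn below, and Cldn5, Kdr, Flt1 and Tek overlap each other, with Cldn5 of m31 replicate 1 standing above the rest of that gene's points.

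The mean log2 level of the 10 genes, centred on the 8 libraries, was 0.14, 0.07, 0.04 and -0.13 in m31 replicates 1 to 4, against 0.02, -0.01, 0.03 and -0.15 in control replicates 1 to 4. The 2 lowest libraries were thus replicate 4 of each group, and the whole range was 0.29. Control replicate 4 held the lowest value of 4 of the 10 genes (Pecam1, Cdh5, Emcn and Vwf), and m31 replicate 3 the highest of 3 (Pecam1, Cdh5 and Tie1). Of all tested genes outside the gene lists used here, the 8 most like this mean over the 8 libraries were Zdhhc12 (Pearson r = 0.970), Med6 (0.963), Cecr2 (0.940), Hdhd3 (0.938), Gm7859 (0.933), Tbc1d2 (0.932), Gm6218 (0.914) and Arfrp1 (0.907). They were picked as the extreme of 15960 genes on 8 points, so these r values describe the choice and carry no test. Set against the mean of the other 9, the members themselves ranged from r = 0.800 for Pecam1 and 0.734 for Cdh5 to -0.23 for Flt1, which shows how unequally the 10 followed each other.

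The other genes of vessel biology were read from lists. In 9 further lists of endothelial genes, 82 of 83 listed genes were tested and 0 passed by limma or edgeR; 8 (beside 6.79% of all genes tested) had an unadjusted p under 0.05, and DESeq2 placed 1 past the threshold, Sox7. Of 18 other pan-endothelial surface and junction genes, 9 had positive and 9 negative estimates with a median log2 difference of -0.01, which was 0.00079 without m31 replicate 4. Mmrn2, a matrix glycoprotein of the endothelial surface, had 935, 923, 890.2 and 825 normalised reads with m31 against 737, 817, 791 and 665 with the control guide. The groups did not overlap, yet the log2 difference of 0.25 ± 0.09 (SE) did not pass (adjusted p = 0.698, limma). Adgrl4, an adhesion receptor of endothelial cells, had a log2 difference of 0.25 and Icam2, which leukocytes bind, -0.23; leaving out 1 library at a time moved Adgrl4 between 0.16 and 0.37 and Icam2 between -0.34 and -0.14.

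Among the VEGF ligands and co-receptors, 7 of 8 estimates were positive with a median log2 difference of 0.15, and none passed. Nrp1, the neuropilin that binds VEGF beside Kdr, had 1203, 1264, 1442 and 1151 normalised reads with m31 against 1044, 1043, 1236 and 990.1 in the controls (log2 difference 0.23, limma adjusted p = 0.728). Control replicate 3 lay within the m31 range. The log2 difference was 0.57 for Vegfc, the ligand of lymphatic vessels, and 0.25 for Vegfb, a ligand of Flt1 abundant in muscle. Without control replicate 3 Vegfb had 0.12, and without m31 replicate 4 it had 0.37. Pgf had 0.24. The others lay near 0: Vegfa, the ligand with the most normalised reads (a mean of 6818), at 0.03, Flt4 at 0.07, Nrp2 at 0.06 and Vegfd at -0.02. Of the 4 genes of the angiopoietin list 1 estimate was positive. Angpt1, the agonist of Tie2 made by cells around the vessel, had 188, 142, 154 and 169.9 normalised reads with m31 and 217, 184, 228 and 184 for controls 1 to 4. This gave a log2 difference of -0.31 ± 0.13 (SE, limma adjusted p = 0.720). Only m31 replicate 1 reached the control range. The antagonist Angpt2 had a log2 difference of 0.22 ± 0.25 (SE), which was 0.42 without control replicate 3 and 0.084 without control replicate 1. The ratio of Angpt2 to Angpt1 was 0.566, 0.930, 0.456 and 0.637 with m31 and 0.301, 0.409, 0.581 and 0.478 with the control guide, a mean difference of 0.53 on the log2 scale (exact two-sided permutation p = 0.143, adjusted p = 0.429 over 3 ratios).

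Endothelial transcription factors gave the closest approach to a call. Sox7, a SOXF factor of vessel formation, stood at 170.0, 185, 214 and 217 normalised reads across m31 replicates 1 to 4, against 311, 249.9, 307 and 289 in the controls. All 4 m31 libraries were below every control library. The means were 197 ± 22.8 and 289 ± 27.9 (SD, n = 4 each), a log2 difference of -0.56 ± 0.12 (SE, limma unadjusted p = 0.000871). Adjusted over all genes it did not pass by limma (adjusted p = 0.547) or edgeR (adjusted p = 0.554), while DESeq2, which placed 0.164% of its genes past the threshold and 0.0475% lower, gave adjusted p = 0.0496. Over the alternatives tried the log2 difference ran from -0.63 to -0.49 and the adjusted p from 0.0496 to 0.985. The related Sox18 had a log2 difference of -0.36 and Sox17, counted in the arterial and Notch list, -0.40, both with overlapping groups. For the shear-responsive factor Klf4 it was -0.36. These moved with single libraries: Sox17 was -0.26 without m31 replicate 1, Sox18 was -0.56 without control replicate 2 and -0.23 without control replicate 3, and Klf4 was -0.60 without control replicate 1 and -0.18 without m31 replicate 1. Fli1, an ETS factor, had a positive estimate of 0.25, with 282, 285, 309 and 282 normalised reads with m31 and 265, 277, 217 and 219.9 with the control guide and no overlap. Of the 11 factors tested, 5 estimates were positive and 6 negative, with a median of -0.02 that was 0.02 without m31 replicate 4 or without control replicate 3.

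In the arterial and Notch list 10 of 15 estimates were negative, that of Sox17 given above included, with a median log2 difference of -0.09. The 5 positive ones were Gja4 at 0.15, Hey2 at 0.13 (on 11.8 to 26.4 normalised reads), Dll4 at 0.12, Unc5b at 0.08 and Jag2 at 0.02. Jag1 and Cxcl12 lay at -0.01 each. Dll1, a Notch ligand, was at 110.2, 126, 100.1 and 109.8 normalised reads with m31 against 129.7, 133, 151 and 161 in the controls, without overlap (log2 difference -0.36, limma adjusted p = 0.698). Notch1 had a log2 difference of -0.19 and its target Hey1 -0.22; without control replicate 3 they were at -0.11 and -0.12, and Notch1 was at -0.31 without control replicate 4. The 4 venous genes ran from -0.09 to 0.01. In the list of capillary transport 5 estimates of 10 were positive: Plvap, the diaphragm protein of fenestrated endothelium, had a log2 difference of 0.33, Rgcc 0.31 and Lpl, the lipase that works on the capillary wall and is made by muscle and fat cells, -0.33, or -0.20 without m31 replicate 4 and -0.51 without m31 replicate 3. Of 6 tested genes of endothelial activation 5 were positive; the selectin Selp had 0.57, on 13.3 to 37.7 normalised reads, and 0.37 without control replicate 4. The adhesion molecule Vcam1 had 0.26 with all libraries and 0.020 without m31 replicate 4, where it was highest at 220.3 normalised reads, and 0.43 without control replicate 3. Another selectin, Sele, was too low to test. In the lymphatic list 3 of 6 were positive; Pdpn, also made by stromal cells, was at 303 normalised reads for m31 replicate 4, with at most 185 elsewhere.

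**Figure D4:**
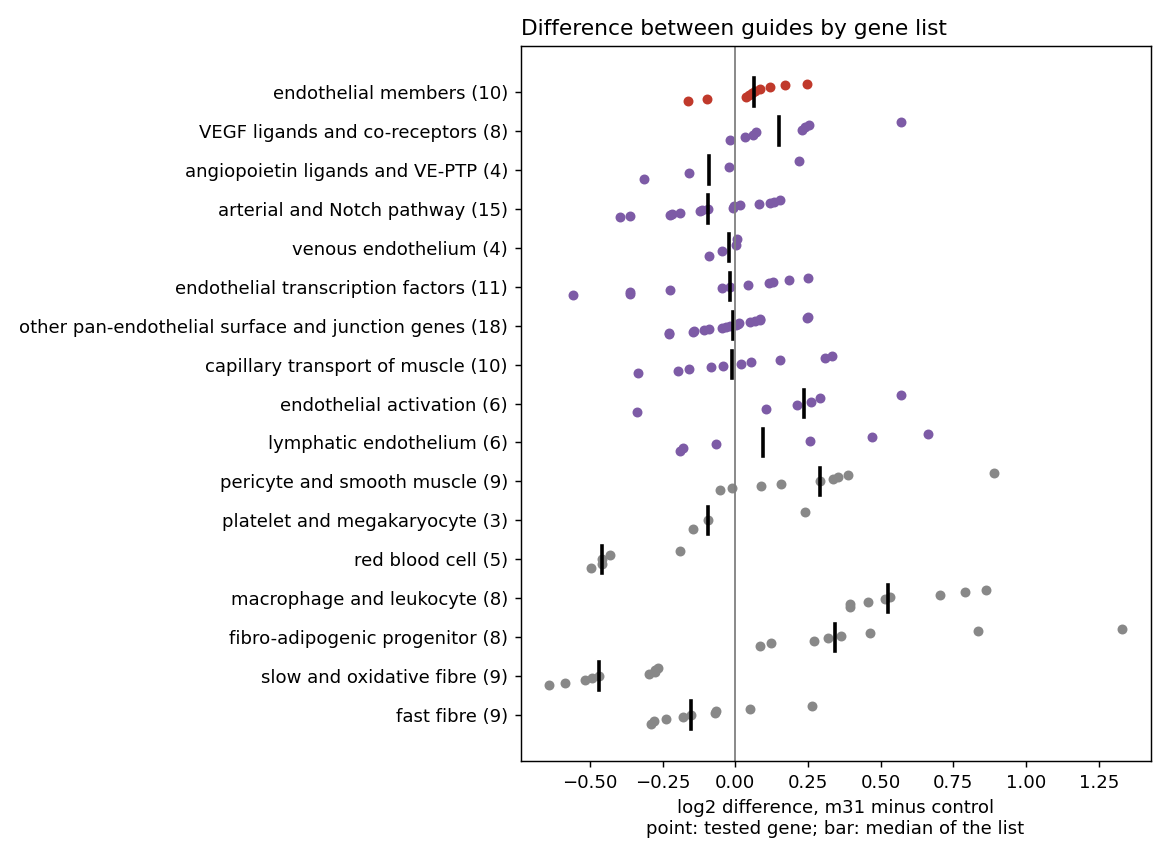
Log2 difference (m31 minus control, x axis) of each tested gene by list, with the number tested in brackets and a bar at the list's median; the 10 endothelial genes are red, other endothelial lists purple and other cells or fibres grey. The 10 genes lie between -0.16 and 0.25 around a median of 0.06.

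The highest library was 1.11 to 2.43 times the lowest for the 10 endothelial genes, with a median of 1.53. This was not particular to them. The same ratio was 1.21 to 2.49 (median 1.51) for the 18 other pan-endothelial genes and 1.39 to 2.18 (median 1.54) for the 9 fast fibre genes. Of the 10 endothelial genes, 6 had a spread within groups below the median of all genes tested. Some lists varied more: the ratio was 3.65 to 5.70 for the 5 red blood cell genes, 2.44 to 6.75 for the 8 macrophage genes and 1.53 to 10.7 for the 8 fibro-adipogenic genes. The centred mean log2 level of the red blood cell list ran from -0.70 to 0.11 with m31 and from -0.90 to 1.15 with the control guide. Hbb-bs, an adult beta globin gene, had 1997, 3700.0, 3123 and 3090.5 normalised reads with m31 and 4572, 7254, 3871 and 1985 with the control guide; this is the gene with the smallest ratio in its list. Control replicate 2 had the most globin and a mean endothelial level of -0.01. In m31 replicate 1 the endothelial mean was highest at 0.14, with the red blood cell list at -0.70. Control replicate 4 was lowest in both, at -0.90 for the red blood cell list and -0.15 for the endothelial mean. Whether globin and vessel levels are linked was not tested. The macrophage and leukocyte list reached 1.11 for m31 replicate 4 and 0.64 for control replicate 3, with the other 6 libraries between -0.77 and 0.21; its gene Adgre1 covered a 6.75-fold range. Pecam1, which leukocytes also express, had 2169 normalised reads for m31 replicate 4 and 2208 for control replicate 3, within the range of the other libraries. The part of leukocytes in the Pecam1 level was not tested.

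The fibro-adipogenic list stood at 1.05 for m31 replicate 4, with the other 7 libraries between -0.53 and 0.30, with Col1a1 at 55870.5 normalised reads there and at most 14877 elsewhere. The slow and oxidative fibre list stood at -0.78 in m31 replicate 4, against -0.19 to 0.32 elsewhere; its median log2 difference was -0.47 with all 9 estimates negative and none past the threshold (Myh7 -0.64, Tpm3 -0.52). Without m31 replicate 4 the median was -0.27, Myh7 -0.38 and Tpm3 -0.38. In m31 replicate 4 the endothelial mean of -0.13 was the second lowest and Kdr the lowest of the 8. In control replicate 4, where the endothelial mean was lowest at -0.15, the slow fibre list stood at 0.20. Whether these levels are linked was not tested. Among pericytes and smooth muscle, the wall cells next to the endothelium, 7 of 9 estimates were positive with a median log2 difference of 0.29 (0.21 without control replicate 3), beside 0.06 for the 10 endothelial genes. Pdgfrb (0.35, no overlap), Notch3 (0.34) and Cnn1 (0.89) had adjusted p = 0.647 each by limma. The groups overlapped for Notch3 and for Cnn1, which had 32.0 to 124.9 normalised reads. Other genes of this list lay near 0: Rgs5 at -0.01, Abcc9 at -0.05 and Acta2 at 0.09. Tagln was too low to test, with means of 7.54 normalised reads with m31 and 10.2 in the controls. A positive median was not particular to wall cells. It was 0.52 for the macrophage list and 0.34 for the fibro-adipogenic list, with 8 of 8 estimates positive in each. That the wall cell genes differ from the endothelial genes was not tested.

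**Figure D5:**
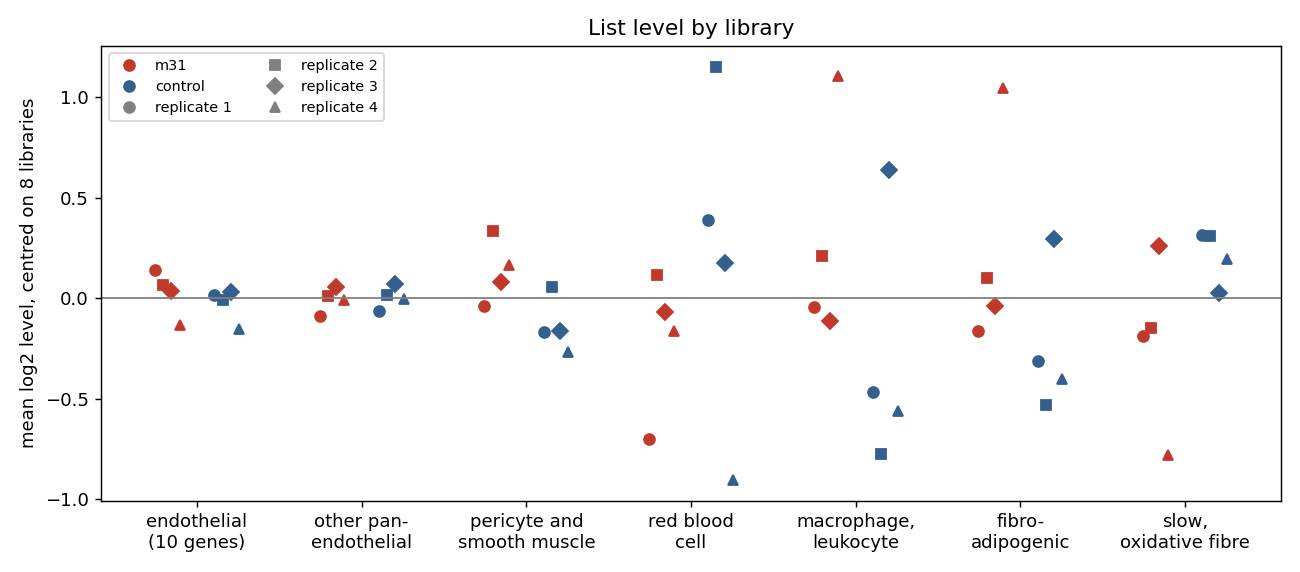
Mean log2 level of 7 gene lists in each library, centred on the 8 libraries (y axis), m31 red and left, control blue and right, symbols for the replicate. The endothelial genes span 0.29, from -0.15 to 0.14, and the other pan-endothelial genes lie between -0.09 and 0.07. m31 replicate 4 reaches 1.11 in macrophage and 1.05 in fibro-adipogenic genes.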

How the data were processed

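RNA of 8 mouse gastrocnemius samples, purified by RNeasy kit and sequenced from NEBNext Ultra libraries per the labels, was grouped by guide and replicate number from the sample titles. The authors deposited 1 table of size-factor-normalised read signal per gene, the reads of each library scaled by its own factor. Tools listed in the submitters' processing notes are STAR and DESeq2, with no version, and the build listed there, GRCh38.p12, is human although the identifiers are mouse Ensembl ones. How reads were counted, with which strand setting and annotation, is not given in the sources used here. Of 11 value columns, 8 match the library names in the labels and the other 3 were not used. All values were whole multiples of 1 read (100% within 0.01), so reads were recovered. The 5 construct entries, 0.0230 to 0.142% of reads, were left out.

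On the scale log2(value + 1), limma 3.58.1 (trend, intercept and guide, 8 libraries) in R 4.3.3 tested the 15960 genes with a mean of at least 10, with Benjamini-Hochberg adjustment across that whole set and a threshold of 0.05. The design foresaw this test for normalised values. Differences of low genes depend on the pseudocount. Ratios of 2 genes were compared by exact permutation tests over 70 arrangements. Alternatives were edgeR 4.0.16 and DESeq2 1.42.0 on the recovered reads, 2 other scalings, 2 filters, 2 pseudocounts, library weights, a replicate block and libraries left out. The fit was tested on simulated data.

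The members, the 16 other gene lists and the tests were chosen with earlier results of these data known. The rule for named genes took every member, Lama1, up to 4 genes per list with the smallest unadjusted p and the 8 genes most like the member mean; part of these is printed. Ppbp, Sele, Rgs5, Abcc9, Acta2, Tagln, Tnnc2, Vegfa, Flt4, Nrp2 and Vegfd were added with their values known. So were Gja4, Hey2, Dll4, Unc5b, Jag2, Jag1, Cxcl12 and the gene pairs of the Pecam1 to Cdh5 and Kdr to Tek ratios. Symbols were matched by identifier for 22979 of 23008 genes; lengths and coordinates come from GENCODE M21 (GRCm38). No pair of replicates was alike within sampling noise (chi-square per degree of freedom 14.3 to 57.9). A count of 0 allows up to 3 reads, or levels of up to 2.86 and 4.00 normalised reads in the control libraries without a Lama1 read, which covers counting error only.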

Additional observations from a re-analysis of the deposited data

Results flagged for a closer look

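Of 26 groups of 4 values looked at (the 10 genes and 3 ratios in each guide group), 3 held a library far from its group by Dixon's criterion, where chance flags about 1 group in 20. Cldn5 reached 484 normalised reads for m31 replicate 1, where the remaining m31 libraries had 199 to 204. Cdh5 was at 2463 for control replicate 4, where the remaining controls had 3055 to 3094, and Pecam1 was at 2039 there, where they had 2185 to 2208. Control replicate 4 had the fewest reads, 25157486, and was also lowest for Emcn and Vwf. The part of depth in this was not tested.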

How the results depend on the processing

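The count of endothelial genes past the threshold was 0 under all 19 alternatives, and their median log2 difference stayed positive, from 0.03 (recentred on library medians) to 0.12 (without m31 replicate 4). Of all genes, 1 passed in most settings, edgeR included, Lama1 among those called in each; DESeq2 called 31, leaving out m31 replicate 4 and control replicate 3 together gave 3, and leaving out 1 library gave 1 to 2, with 2 without m31 replicate 1 or control replicate 4. The titles number replicates alike in both groups, but same-numbered libraries deviated with correlations of 0.05, -0.05, -0.13 and -0.18, and none matched its own number best; with the replicate block 1 gene passed, no member did and the median stayed at 0.06. For the ratio of Flt1 to Kdr the block gave -0.22, for Tek to Tie1 -0.11 and for Angpt2 to Angpt1 0.53, with adjusted p of 0.750 each in the exact sign-flip test. The ratio of Tek to Tie1 turned positive without control replicate 3 (0.0066) and without m31 replicate 4 and control replicate 3 together (0.046); leaving out 1 library at a time it ran from -0.22 to 0.0066, Flt1 to Kdr from -0.41 to -0.04 and Angpt2 to Angpt1 from 0.35 to 0.68. Sign changes among members, none near a call, were Egfl7 under library weights (-0.038) and, leaving out 1 library, Cdh5 (-0.012 to 0.10), Tek (-0.0096 to 0.13), Egfl7 (-0.019 to 0.22), Flt1 (-0.17 to 0.0089) and Vwf (-0.16 to 0.15). The causes were not tested. The medians of the other gene lists without m31 replicate 4, control replicate 3 or both were added after seeing the data. Over these 3 settings the median ran from 0.25 to 0.82 for the macrophage list and from 0.20 to 0.56 for the fibro-adipogenic list. It ran from 0.04 to 0.31 for the lymphatic list, and for the angiopoietin list it changed sign (-0.19 to 0.10). Members rested on at least 184 reads per library, and Selp and Vegfc had under 100 normalised reads in every library.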
